A study of Rattus norvegicus with 9 samples.

Results

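The genes described here are 35 cell cycle and DNA replication genes, taken by their symbols from the 19367 genes of a rat kidney expression table. They cover the D cyclins, the G1 kinases, 2 CDK inhibitors, the G1/S switch, origin licensing, nucleotide supply and the replication fork, mitotic entry and mitosis. All 35 were measured, and 25 of them passed the filter for testing, which asked for 3 or more of the 9 libraries with 1 FPKM or more. FPKM counts fragments per kilobase of transcript, scaled to the fragments mapped in each library. The other 10 (E2f1, Ccne1, Ccnb1, Ccnb2, Mki67, Top2a, Plk1, Aurkb, Bub1 and Bub1b) stayed below it and are given as values only.

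A resting cell enters the cycle when D-type cyclins activate Cdk4 and Cdk6, which phosphorylate the retinoblastoma protein and release E2F factors. E2F factors then drive genes for cyclin E, for the MCM helicase that licenses replication origins, and for the enzymes that make deoxynucleotides. The DREAM and MuvB complexes act through a promoter element named CHR on genes of mitotic entry and chromosome segregation. In the adult kidney most tubular cells are quiescent, and cycling cells are few.

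Kidney RNA was sequenced in 9 libraries of 3 groups with 3 libraries each: Wistar-Kyoto rats (WKY, normotensive), spontaneously hypertensive rats (SHR, an inbred hypertensive strain), and SHR that received dapagliflozin, an inhibitor of the glucose cotransporter SGLT2 of the proximal tubule. Rats were 3 months old at the start; the oral dose of the drug was 10 mg/kg daily over 8 weeks, and the untreated WKY and SHR received distilled water per the protocol text or saline per another field. Groups were taken from the titles, because all libraries carry the strain label Wistar-Kyoto. No label ties a library to an animal, so p-values measure the spread between these libraries only, which may be technical.

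In bulk kidney RNA, fewer cells of a type and less RNA per cell cannot be told apart, and the libraries differed in their tubule markers. The kidney label held: Aqp2 of the collecting duct lay between 190.79 and 1168.45 FPKM and Synpo of the podocyte between 11.93 and 46.08 FPKM. The summed FPKM of 6 collecting duct markers was 333.16 to 620.87 in WKY, 775.98 to 909 in untreated SHR and 1086.44 to 1981.44 in treated SHR, and 6 of 6 were called higher in treated SHR than in WKY, a call being an adjusted p under 0.05 in the limma fit over all tested genes. The sum of 6 late proximal tubule markers was 1375.74 to 2772.2 in WKY, 1149.09 to 1371.26 in untreated SHR and 472.63 to 1576.81 in treated SHR, with 3 of 6 called lower in treated SHR than in WKY. For 6 early proximal tubule markers it was 2005.22 to 2812.44, 2211.67 to 2936.57 and 1093.75 to 2214.51 in the same order, with 1 of 6 called lower in treated SHR than in WKY. The sum of 6 podocyte markers was 115.49 to 286.3, 286.49 to 455.68 and 300.44 to 524.78 in the same order, and no listed marker was at 0 in all 9 libraries.

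Promoter sequences from RefSeq (build GRCr8) were available for 25 of the 35 members, and the 250 bases before the annotated start are printed for the members with the largest called changes. No sequence was available for Ccnd1, Ccnd2, Cdk6, E2f1, Ccne2, Cdc6, Mcm4, Rrm2, Ccna2 and Aurkb. Capitals mark a match to an E2F motif, a CHR or a CCAAT box. The E2F motif was searched as TTTCGCGC, TTTGGCGC, TTTCCCGC and TTTGCCGC, the CHR as TTTGAA and TTCGAA, and the CCAAT box as CCAAT, all on both strands. Birc5 had a CHR 8 bases before the start and a CCAAT box at 213. Tyms had an E2F match at 37. Mcm2 had overlapping E2F matches on opposite strands at 14 and 10 bases before the start and CHR matches at 215 and 175. The RefSeq records of all 3 genes reach further upstream, so these windows lie partly or wholly inside the annotated spans.
Birc5, chr10:103571896-103572145, plus strand: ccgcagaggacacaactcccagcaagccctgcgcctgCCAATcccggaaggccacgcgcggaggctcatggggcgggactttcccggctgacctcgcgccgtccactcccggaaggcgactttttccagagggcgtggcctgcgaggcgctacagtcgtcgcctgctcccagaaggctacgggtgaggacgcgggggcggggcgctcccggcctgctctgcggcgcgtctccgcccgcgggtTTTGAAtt
Tyms, chr9:120776084-120776333, minus strand: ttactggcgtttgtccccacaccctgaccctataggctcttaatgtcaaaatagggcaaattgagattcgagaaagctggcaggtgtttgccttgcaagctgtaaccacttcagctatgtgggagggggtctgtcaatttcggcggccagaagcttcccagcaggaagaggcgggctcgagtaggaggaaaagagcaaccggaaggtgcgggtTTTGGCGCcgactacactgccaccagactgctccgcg
Mcm2, chr4:122918095-122918344, minus strand: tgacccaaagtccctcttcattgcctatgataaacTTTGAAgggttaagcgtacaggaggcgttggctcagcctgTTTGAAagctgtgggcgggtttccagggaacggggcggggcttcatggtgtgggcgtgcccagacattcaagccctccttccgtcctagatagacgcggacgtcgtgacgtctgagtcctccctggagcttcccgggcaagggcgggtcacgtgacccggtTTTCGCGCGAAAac

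The E2F letters were found before 6 of the 25 starts (24%), those of Cdk1, Mcm2, Mcm5, Mcm6, Mcm7 and Tyms, against 1.73% of 33469 RefSeq promoters and 3.16% of the 11579 promoters of tested genes. Of the licensing members, 4 of 5 held a match, and of the mitosis members 0 of 8. The CHR was present in 10 of 25 (40%), against 17.4% of all promoters and 12% of those of tested genes, and in 5 of 8 mitosis members. The CCAAT box was present in 17 of 25 (68%), against 34% of all promoters and 35% of those of tested genes. The windows of 30 bases below give E2F matches in the members not printed in full, with capitals over the E2F match alone. They were cut around the letters searched for, so the likeness of the capitals follows from the search. Each gene has 1 window here, and Mcm5 and Mcm7 hold a further match elsewhere in their 250 bases. In Mcm5 and Mcm6 the matches on opposite strands overlap, as in Mcm2, and in Mcm7 the match shares its last base with a CCAAT box. These matches are letters in a window and were not tested as binding sites.
Mcm5, chr19:13488589-13488618, plus strand: tagctcagaagTTTCGCGCCAAAacgtccc
Mcm6, chr13:42404473-42404502, minus strand: tggcgtctgctTTTGGCGCGAAAttagcgt
Mcm7, chr12:22163212-22163241, minus strand: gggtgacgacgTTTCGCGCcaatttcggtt
Cdk1, chr20:19265149-19265178, plus strand: tttccgctcccTTTCGCGCtctgcactccc

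FPKM is scaled by transcript length, so levels can be set side by side across members. The highest were G1 and fork genes. Cdk4, the catalytic partner of the D cyclins, was at 48.4 to 64.75 FPKM over the 9 libraries, Ccnd3 at 35.51 to 56.4 and Ccnd1 at 30.35 to 52.38. Cdkn1b, which encodes the CDK inhibitor p27, was at 27.88 to 35.85, and Pcna, the sliding clamp of the fork, at 27.23 to 31.81. Among the licensing genes Mcm7 (8.61 to 12.9) and Mcm2 (5.67 to 10.96) stood above Mcm4 (2.6 to 3.97), Mcm6 (1.09 to 3.07), Mcm5 (0.85 to 1.48), Mcm3 (0.41 to 1.36) and Cdc6 (0.31 to 1.62). The 6 MCM proteins form a ring of equal parts, but their transcripts differed in level within each library.

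**Figure D1:**
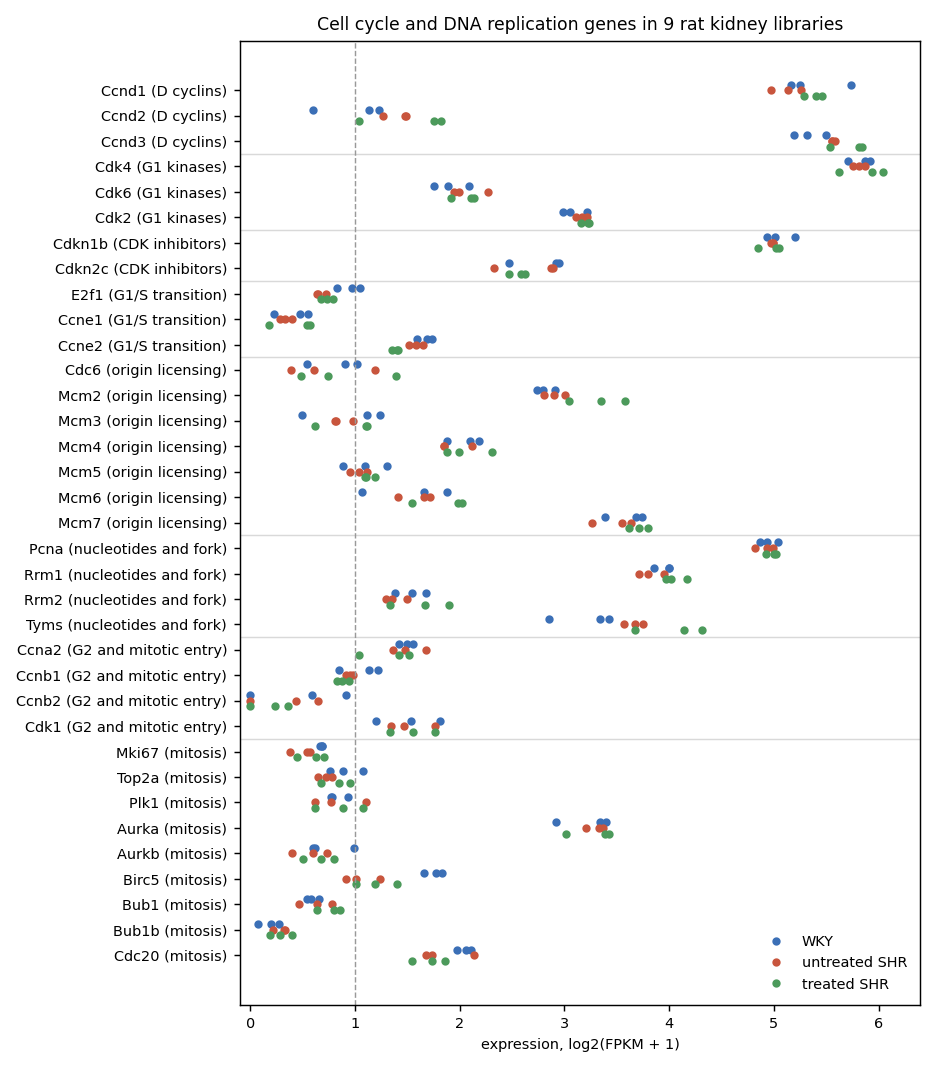
Level of each of the 35 members in each of the 9 libraries, as log2(FPKM + 1) on the horizontal axis, with members grouped by role and each point 1 library of WKY, untreated SHR or treated SHR. The dashed line is 1 FPKM; Cdk4, Ccnd1, Ccnd3, Cdkn1b and Pcna lie far to the right of it, and most mitosis members lie near or left of it.

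Many mitotic genes were near the lower limit of the table. Mki67, the proliferation marker detected as Ki-67, lay between 0.3 and 0.63 FPKM, Top2a (topoisomerase II alpha) between 0.57 and 1.11, Bub1 between 0.38 and 0.81, and Bub1b, its spindle checkpoint relative, between 0.05 and 0.32. Ccnb2, a B-type cyclin, was listed at 0 in WKY 3, untreated SHR 2 and treated SHR 3 and reached 0.88 in WKY 1. Others lay higher: Cdc20 at 1.91 to 3.4, Cdk1 at 1.3 to 2.51, Ccna2 at 1.05 to 2.2 and Birc5 at 0.89 to 2.56 FPKM, with Aurka at the top of the group at 6.58 to 9.72. The Aurka gene overlaps the protein-coding gene Fam210b in the GRCr8 annotation, and whether counting used the strand is not known here, so its level is uncertain. The same holds for Cdk4 (Tspan31), Cdk2 (Pmel), Ccne2 (Ints8), Rrm2 (Cys1) and Plk1 (Ern2), and 11 of the 35 members overlap some annotated gene.

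The first comparison, untreated SHR against WKY, is the contrast of the 2 strains. Birc5 was the 1 tested member called, and it was lower in SHR. Calls were made for 1 of 25 members (4%), against 2.96% of all 13127 tested genes, of which 1.84% were higher and 1.12% lower. Birc5 encodes survivin, a subunit of the chromosomal passenger complex that also restrains caspases. It was at 2.16, 2.56 and 2.42 FPKM in WKY 1 to 3 and at 0.89, 1.36 and 1.01 in untreated SHR 1 to 3. All 3 SHR libraries lay below all 3 WKY libraries. The means were 2.38 ± 0.203 and 1.09 ± 0.244 FPKM (SD, n = 3 each), a change of -0.70 ± 0.14 (SE) on the log2(FPKM + 1) scale (limma, Benjamini-Hochberg adjusted p = 0.0370). The call was kept without treated SHR 1 or treated SHR 3. Without any 1 of the WKY or untreated SHR libraries, or without treated SHR 2, which shares in the estimate of spread, the adjusted p was between 0.0576 and 0.158 and the change between -0.79 and -0.63.

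Of the 25 tested members, 10 were above 0 and 15 below in this contrast, with a median of -0.06 against 0.07 over all tested genes, both on the log2 scale. The count above 0 was 8 under median-of-ratios and 4 under quantile scaling, and the share of called genes that were higher went from 62.1% to 52.5% and 49.6%. Groups did not overlap for 4 of 25 (16%): Tyms, Ccnd2 and Ccnd3 above WKY and Birc5 below, where 28.4% of all tested genes did not overlap, 20.3% higher and 8.11% lower. Tyms encodes thymidylate synthase, which makes dTMP. It was at 6.22, 9.73 and 9.1 FPKM across the WKY libraries and at 11.74, 10.86 and 12.49 in untreated SHR. Every untreated SHR library was above the WKY libraries, yet the change of 0.46 ± 0.19 did not pass (limma, adjusted p = 0.233).

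Ccnd3 was at 35.51, 44.13 and 38.85 FPKM across the WKY libraries and at 46.08, 46.97 and 46.07 in untreated SHR, with a change of 0.23 ± 0.10 (limma, adjusted p = 0.265). The untreated SHR libraries were close together and just above WKY 2. Ccnd1 was at 37.13, 34.78 and 52.38 in WKY and at 34.19, 37.42 and 30.35 in untreated SHR, so that the groups overlapped. Its change was -0.26 ± 0.15 (limma, adjusted p = 0.359). The D cyclins thus had changes of both signs, and their sum was 81.9 ± 9.84 FPKM for WKY against 82.0 ± 3.80 for untreated SHR (SD, n = 3 each).

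Among the members too low to test, E2f1 was at 0.78, 1.07 and 0.96 FPKM across the WKY libraries, at 0.57, 0.65 and 0.56 in untreated SHR and at 0.73, 0.6 and 0.66 in treated SHR. WKY libraries were above all 6 SHR libraries for this transcription factor, whose levels lay around the filter. Mki67 was at 0.61, 0.61 and 0.59 in WKY, at 0.48, 0.46 and 0.3 in untreated SHR and at 0.36, 0.55 and 0.63 in treated SHR. The untreated groups did not overlap, and treated SHR spanned both. Of the untested members only E2f1 and Mki67 had WKY and untreated SHR groups apart, as had 28.4% of all tested genes. For the other untested members these groups overlapped. Their means were higher in untreated SHR for Plk1, Bub1 and Bub1b and lower for Ccne1, Ccnb1, Ccnb2, Top2a and Aurkb. With no filter, all 35 members entered the fit and Birc5 was still the 1 member called in this comparison.

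The second comparison, treated against untreated SHR, asks what the drug changed within the strain. No member was called by limma, and 0% of all tested genes were. At an unadjusted p under 0.05 there were 2 of 25 members, Mcm2 and Rrm1, where 15.2% of all tested genes had such a p, and the smallest adjusted p among the members was 0.285. Under the alternatives, the count was 0 with all but 1: without treated SHR 1, Mcm2 was called higher, by 0.56 (limma, adjusted p = 0.0350), in a fit that called 6.37% of all tested genes.

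Mcm2, a subunit of the replicative helicase, was at 6.46, 5.98 and 7.03 FPKM in untreated SHR and at 7.23, 9.21 and 10.96 in treated SHR. The treated libraries were all above the untreated ones, and treated SHR 1 was only just above untreated SHR 3. The means were 6.49 ± 0.526 and 9.13 ± 1.87 FPKM (SD, n = 3 each), a change of 0.42 ± 0.14 (limma, adjusted p = 0.285).

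Rrm1, the large subunit of ribonucleotide reductase, was at 14.47, 12.91 and 12.08 FPKM in untreated SHR and at 14.7, 15.25 and 16.99 in treated SHR, with WKY at 13.52, 14.96 and 15.04. The 2 SHR groups did not overlap, the WKY values lay across both, and the change was 0.24 ± 0.09 (limma, adjusted p = 0.298). Tyms was at 11.77, 16.71 and 18.92 in treated SHR, with treated SHR 1 inside the range of untreated SHR. Its change was 0.38 ± 0.19 (limma, adjusted p = 0.363).

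**Figure D2:**
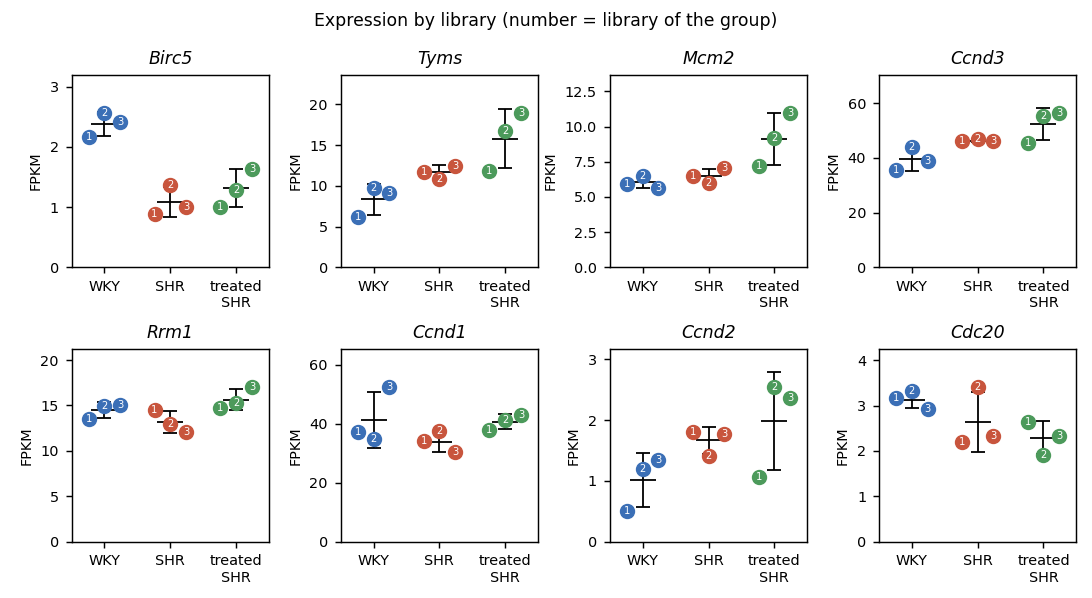
FPKM of 8 members in each library, on axes that start at 0, with the mean (horizontal bar) and SD (error bar, n = 3) of each group and the library number inside each point. WKY stands apart for Birc5, and treated SHR 1 is the lowest treated library in 7 of the 8 panels, Cdc20 being the exception.

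Groups did not overlap for 4 of 25 tested members, against 19.0% of all tested genes, 12.6% higher and 6.44% lower. Beside Mcm2 and Rrm1 these were Ccnd1, with 38.02, 41.25 and 42.93 FPKM in treated SHR, and Ccne2, which was lower there. Ccne2, a cyclin E that activates Cdk2 at the start of S phase, was at 2.13, 1.99 and 1.86 in untreated SHR and at 1.65, 1.55 and 1.66 in treated SHR, a change of -0.19 ± 0.10 (limma, adjusted p = 0.376).

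By sign, 18 of the 25 tested members were above 0 in treated against untreated SHR, with a median of 0.09, against 57.4% above 0 and a median of 0.04 over all tested genes. The 11 genes of licensing and of the fork were all above 0, from 0.07 (Pcna) to 0.42 (Mcm2), although none passed the test. They remained 11 of 11 under median-of-ratios and quantile scaling. Without treated SHR 3, 8 of the 10 then tested were above 0, without untreated SHR 1 or treated SHR 2 it was 10 of 11, and with the tubule marker score described below as a covariate it was 7 of 11. Of the other 14 tested members, 7 were above 0, the D cyclins among them. The list of other cell cycle genes, described below, did not share the single sign of the 11. There, 14 of 22 tested replication fork genes (63.6%) and 7 of 10 origin and helicase genes (70.0%) were above 0.

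**Figure D3:**
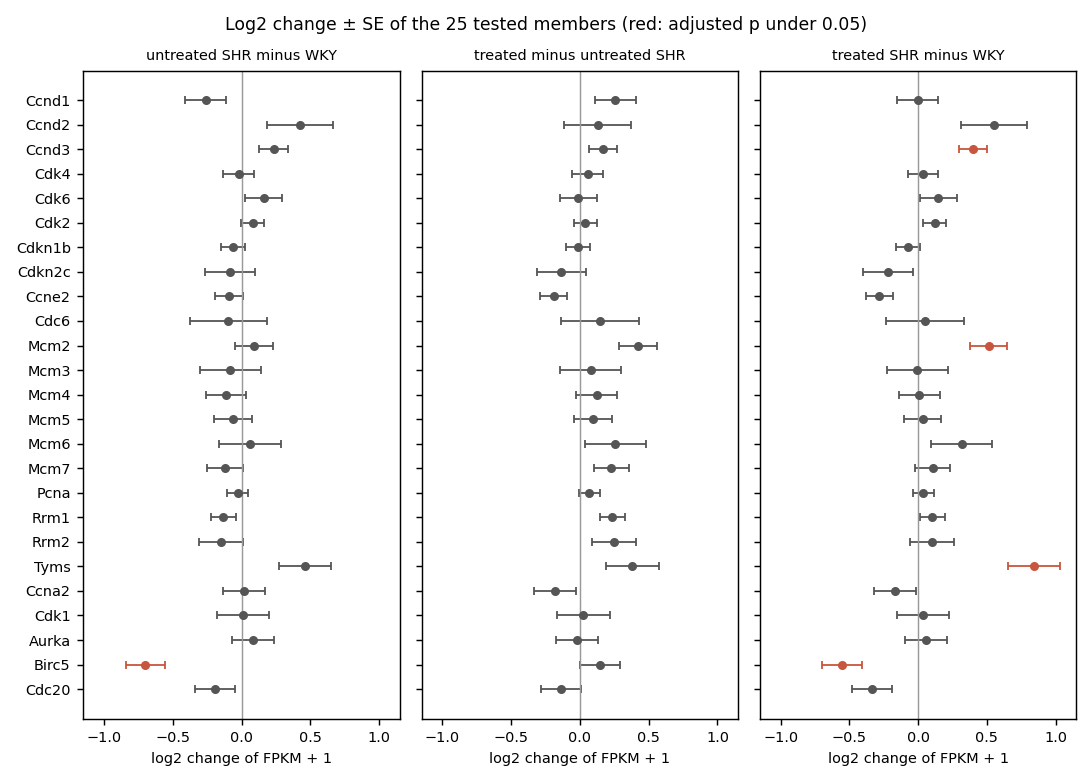
Change of each of the 25 tested members in the 3 contrasts, as log2 of FPKM + 1 with its SE (bars), in the order of the roles; red points have a limma adjusted p under 0.05. The middle panel has no red point and the licensing and fork genes from Cdc6 to Tyms lie right of 0 there, while Birc5 is red and left of 0 in the other panels.

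The third comparison, treated SHR against WKY, shares its treated libraries with the second and its WKY libraries with the first, and is not independent of either. Its groups differ in both strain and drug, which cannot be told apart in this contrast. Where a gene is said to have risen or fallen in it, the gene was higher or lower than in WKY. Tyms, Ccnd3 and Mcm2 were called higher and Birc5 lower in treated SHR. These are 4 of 25 tested members (16.0%), where 22.9% of all tested genes were called, 16.8% higher and 6.09% lower. At an unadjusted p under 0.05 there were 7 of 25 members, against 40.2% of all tested genes. The difference between these shares was not tested, and under quantile scaling 5 of 25 members were called, against 20.1% of all tested genes.

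Tyms, at 8.35 ± 1.87 FPKM in WKY and 15.8 ± 3.66 in treated SHR (SD, n = 3 each), rose by 0.84 ± 0.19 (limma, adjusted p = 0.0193). Mcm2, at 5.94, 6.5 and 5.67 FPKM in WKY, rose by 0.51 ± 0.14 (limma, adjusted p = 0.0309). Ccnd3, at 45.51, 55.27 and 56.4 in treated SHR, rose by 0.40 ± 0.10 (limma, adjusted p = 0.0296). For each of the 3 genes every treated library was above every WKY library.

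Birc5, at 1.01, 1.29 and 1.64 FPKM in treated SHR, fell by 0.55 ± 0.14 against WKY (limma, adjusted p = 0.0284). Its change between the SHR groups was 0.15 ± 0.14 (limma, adjusted p = 0.634), and treated and untreated libraries overlapped. Groups did not overlap for 6 of 25 tested members, against 38.6% of all tested genes, 28.2% higher and 10.4% lower. These were the 4 called members with Ccne2 and Cdc20, both lower in treated SHR.

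Ccne2, at 2.02, 2.32 and 2.23 FPKM in WKY, had a change of -0.28 ± 0.10 (limma, adjusted p = 0.0686). It was called lower under median-of-ratios scaling, quantile scaling and with no trend (limma, adjusted p = 0.0292, 0.0284 and 0.0327). Cdc20, an activator of the anaphase-promoting complex, was at 3.16, 3.31 and 2.93 in WKY, at 2.19, 3.4 and 2.34 in untreated SHR and at 2.64, 1.91 and 2.32 in treated SHR. Its change against WKY was -0.33 ± 0.15 (limma, adjusted p = 0.123). Ccnd2 was at 0.51, 1.2 and 1.35 in WKY and at 1.06, 2.54 and 2.37 in treated SHR, and its change of 0.55 ± 0.24 did not pass (limma, adjusted p = 0.122). Treated SHR 1 lay among the WKY values, and without it Ccnd2 was called higher, by 0.80 (limma, adjusted p = 0.0175).

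The 4 calls rested on several libraries, on the pooled spread and, for Ccnd3, on the scaling: under median-of-ratios its change was 0.26 (limma, adjusted p = 0.0550). No member was called without WKY 1, WKY 3 or treated SHR 2, where 5.67%, 3.95% and 8.28% of all tested genes were called. The same held when the 2 groups were fitted without untreated SHR (limma, adjusted p from 0.0573 to 0.0788 for the 4), beside 7.82% of all tested genes. Without treated SHR 3 Birc5 alone was called, beside 7.24% of all tested genes. Without WKY 2 Birc5 was not called, beside 24.9%, and without untreated SHR 1 Mcm2 was not, beside 15.7%. Of the tested members 17 were above 0, with a median of 0.04 against 0.11 over all tested genes. Median-of-ratios scaling, which moved the all-gene median to -0.01, left 7 above 0, and quantile scaling left 6. The share of called genes that were higher went from 73.5% to 53.6% and 59.9%.

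The library also mattered within a group. Treated SHR 1 was the lowest treated library for 20 of the 25 tested members (80.0%) and for 10 of the 11 licensing and fork genes, where it was lowest for 57.0% of all tested genes. WKY 1 was the lowest WKY library for 17 of 25 (68.0%), against 45.1% of all tested genes. Summed over the 7 licensing genes the levels were 24.26, 29 and 22.74 FPKM for WKY, 24.98, 21.3 and 26.32 for untreated SHR and 25.14, 31.03 and 34.2 for treated SHR. The sum of treated SHR 1 fell among those of untreated SHR, and the other 2 treated libraries exceeded them.

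For nucleotide supply and the fork, 4 genes, the sums were 49.54, 58.71 and 55.6 for WKY, 58.92, 54.81 and 53.36 for untreated SHR and 57.44, 65.7 and 69.55 for treated SHR. Within treated SHR the libraries had the same order as for licensing, and within the other groups they did not. For mitotic entry and mitosis, 13 genes, they were 20.08, 24.61 and 23.68, then 21.85, 21.01 and 19.27, then 18.34, 20.04 and 23.04. These ranges overlapped between all 3 groups, and Aurka was the largest part of each.

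**Figure D4:**
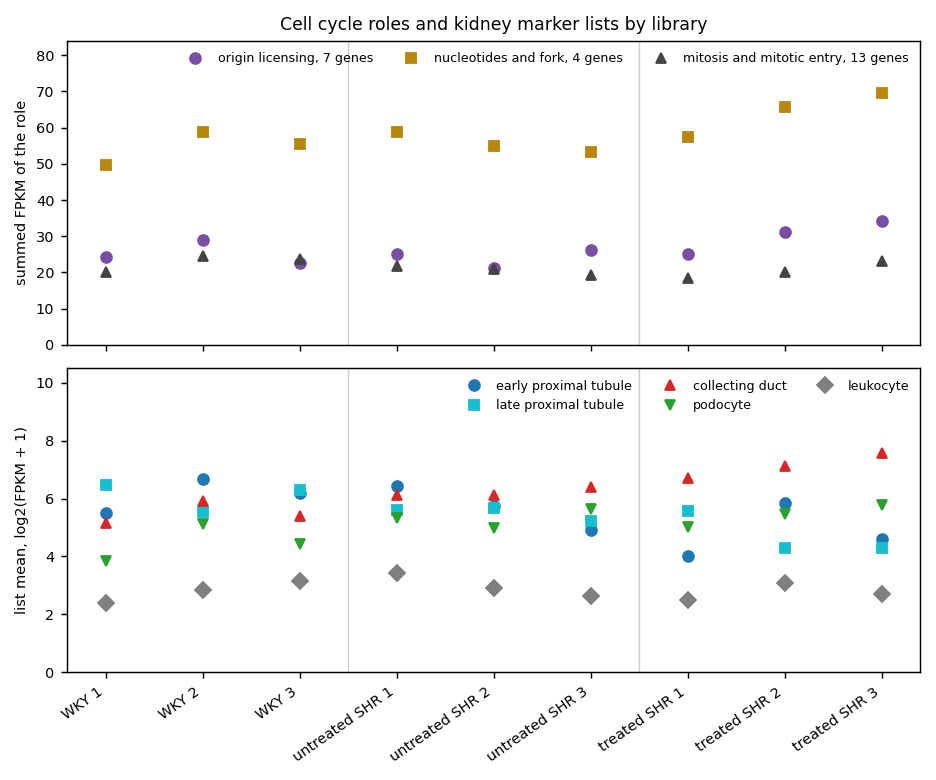
Upper panel, summed FPKM of 3 role groups of members in each of the 9 libraries; lower panel, mean log2(FPKM + 1) of 5 kidney marker lists in the same libraries. Licensing and fork sums are highest in treated SHR 2 and 3, the libraries with the highest collecting duct means and the lowest late proximal tubule means. The early proximal tubule mean is lowest in treated SHR 1.

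The libraries with the highest Mcm2 and Tyms were also those with the most collecting duct and least late proximal tubule signal. The collecting duct list had means of 6.72, 7.12 and 7.56 in treated SHR 1 to 3, and the late proximal tubule list 5.56, 4.30 and 4.30, as log2(FPKM + 1). A tubule marker score, the mean of the 2 proximal lists minus the podocyte list, was 0.98 to 2.13 in WKY, -0.56 to 0.74 in untreated SHR and -1.34 to -0.24 in treated SHR. WKY did not overlap the other groups in this score, so that strain and score cannot be fully told apart. With the score as a covariate no member was called in any contrast. The change of Birc5 then was -0.83 in untreated SHR and -0.78 in treated SHR against WKY (limma, adjusted p = 0.189 and 0.903), and those of Tyms, Ccnd3 and Mcm2 in treated SHR against WKY were 0.18, 0.13 and 0.06. Of all tested genes, 0.617% and 0.229% were called in these contrasts under that fit. Leukocyte list means were 2.39 to 3.15 in WKY, 2.63 to 3.44 in untreated SHR and 2.49 to 3.09 in treated SHR, and overlapped. The part of cell composition in the members' changes was not tested beyond this covariate.

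The remaining members showed no call in any contrast. Cdk4, Cdk6 and Cdk2, the G1 kinases, had changes between -0.02 and 0.16 over the 3 contrasts, with limma adjusted p of at least 0.308. The inhibitors Cdkn1b and Cdkn2c, which encodes p18, lay below 0 in all 3, between -0.22 and -0.01. Pcna, with an SE of 0.08 in each contrast, had changes of -0.03, 0.07 and 0.04. Cdk1 and Ccna2, the kinase and cyclin of mitotic entry, and Aurka of the spindle poles lay between -0.18 and 0.08. Cdc6, which loads the helicase, had the largest SE of the 25, 0.28. The median SD within a group was 0.18 for tested members and 0.15 for all tested genes, on the log2 scale.

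Other cell cycle genes were read from a list of 146 that holds none of the members, 99 of which were tested. In untreated SHR against WKY 1 of 99 (1.01%) was called, beside 2.96% of all tested genes. The gene called was Hmgb2, a chromatin protein of proliferating cells. It was at 6.08, 5.24 and 4.73 FPKM across the WKY libraries, at 1.96, 2.25 and 3.06 in untreated SHR and at 1.49, 1.34 and 0.89 in treated SHR. The 3 groups did not overlap. It fell by 0.90 ± 0.16 in untreated SHR against WKY (limma, adjusted p = 0.0210), a call lost without any 1 WKY library or without untreated SHR 1 or 2 (limma, adjusted p from 0.0538 to 0.0932). That call was also lost with the replicate block and with the marker score (limma, adjusted p = 0.0645 and 0.246). In treated SHR it fell by 1.51 ± 0.16 against WKY (limma, adjusted p = 0.00122), a call kept without any 1 library and lost with the marker score (limma, adjusted p = 0.327).

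In treated against untreated SHR 0 of 99 were called by limma, and 0% of all tested genes were. An unadjusted p under 0.05 was found for 19 of 99, where 15.2% of all tested genes had such a p. Without treated SHR 1, 4 were called, in a fit that called 6.37% of all tested genes. With all 9 libraries, the smallest p among those of the 99 above 0 was that of Prim1, a primase subunit, with a change of 0.27 (limma, adjusted p = 0.285). Among those below 0 it was that of Lin52, a MuvB subunit, with -0.46 (limma, adjusted p = 0.281). In treated SHR against WKY 12 of 99 (12.1%) were called, 7 higher and 5 lower, beside the 22.9% of all tested genes. Without WKY 1 the count was 3, beside 5.67% of all tested genes, and without WKY 3 it was 1, beside 3.95%. Without treated SHR 1 it was 20, beside 36.6%. Without treated SHR 2 or treated SHR 3 it was 2, beside 8.28% and 7.24%. With the 2 groups alone it was 6, beside 7.82%, and with the marker score as a covariate 0, beside 0.229%.

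The 12 had limma adjusted p between 0.00122 and 0.0438, and replication genes among them went both ways. Rpa1, of the complex that coats unwound DNA, rose by 0.36 and Prim1 by 0.30, while Prim2, the other primase subunit, chosen after its values were seen, fell by 0.46. Of the 18 alternatives, 13 lost the call of Prim1, 10 that of Prim2 and 8 that of Rpa1, and under median-of-ratios and quantile scaling neither Prim1 nor Rpa1 was called. Tk1, which salvages thymidine, fell by 0.59. It was at 7.01, 8.11 and 7.21 FPKM across the WKY libraries and at 5.48, 4.39 and 4.07 in treated SHR. All WKY libraries were above all treated libraries, in the opposite direction to Tyms.

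Stmn1, a microtubule destabiliser, fell by 1.04. The kinase-inhibitor gene Cdkn1c (p57), which podocytes express, was at 12.5, 26.29 and 15.25 in WKY and at 34.71, 42.3 and 47.33 in treated SHR and rose by 1.21, while E2f2 rose by 0.56, Mybl2, a MuvB partner, by 0.68, Fzr1, an activator of the anaphase-promoting complex, by 0.42 and Cdk14 by 0.83. With the marker score, which subtracts the podocyte list, as a covariate the change of Cdkn1c was -0.16. Over the alternatives that did not leave out 1 library, the changes smallest in size were -0.13 for Stmn1, 0.036 for Mybl2, 0.077 for Cdk14, 0.29 for Fzr1 and 0.40 for E2f2. The part of podocyte content in the change of Cdkn1c was not tested. All of these changes are on the log2(FPKM + 1) scale.

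**Figure D5:**
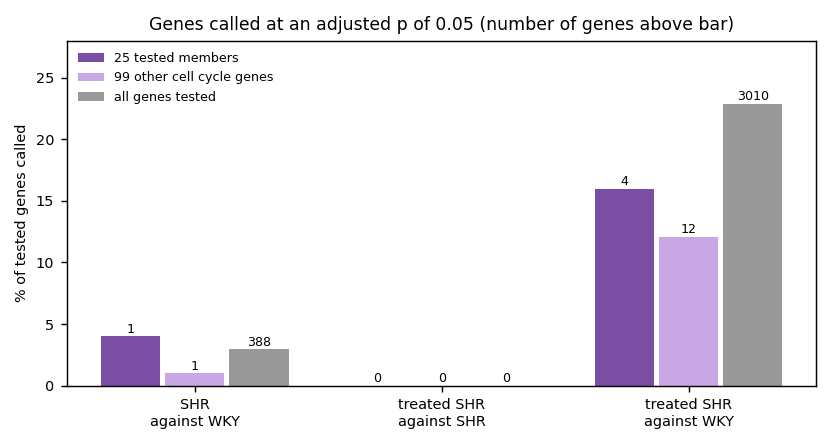
Percentage of tested genes called at a limma adjusted p under 0.05 in each contrast (bars start at 0) for the 25 tested members, the 99 other tested cell cycle genes and all tested genes, with the number of genes above each bar. No gene was called in treated against untreated SHR, and in treated SHR against WKY the bars stand at 16.0% for the members, 12.1% for the other cell cycle genes and 22.9% for all genes.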

How the data were processed

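Expression was measured by RNA sequencing of rat kidney. The deposited values are FPKM computed by the authors, per the file headers, with 1 column per library. The build Rnor_6.0 and the tools Bowtie2 2.2.5 and HISAT2 2.0.4 are named per the submitters' processing notes, with no role stated. Counting program, annotation, strand setting and filters: not given in the sources used here. No read totals could be recovered from the low values, so depth is unknown and the precision of low members cannot be stated as counts. FPKM is relative to each library's mapped fragments, so abundant transcripts that change move all others.

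Values were tested as log2(FPKM + 1) with limma 3.58.1 (R 4.3.3, trend on) in 1 group-means model over the 9 libraries (6 residual degrees of freedom). The pseudocount of 1 understates changes of low genes. The Benjamini-Hochberg adjustment ran over all 13127 genes with at least 1 FPKM in at least 3 libraries, and an adjusted p under 0.05 made a call. The procedure was tested on simulated data. Members called in any contrast, and the 3 with the smallest p in each, are given in every library; of the other cell cycle genes, called ones are named, up to 10 per contrast, or the smallest p in each direction, except for 1 gene that is not reported here. Other members were described by role after their values were seen. The members and lists were chosen with earlier results of these data known.

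Alternatives were 18 settings: other scalings, pseudocount, filters, variance models, a replicate block, a marker score as a covariate, and leaving out each of the 9 libraries. The GRCr8 reference gave names, overlapping genes and promoters, and all 35 members matched it by identifier and symbol.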

Additional observations from a re-analysis of the deposited data

How the results depend on the processing

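The count of members called moved with the setting in each contrast. In untreated SHR against WKY it was 1, and it was 0 with a filter of 5 FPKM, where Birc5 was not tested, with the marker score as a covariate, and 0 to 1 when 1 library was left out. In treated against untreated SHR it was 0 and ranged from 0 to 1 with 1 library left out. In treated SHR against WKY it was 4, became 0 with only the 2 groups compared and 0 with the marker score, ranged from 0 to 5 with 1 library left out, and was 3 to 5 under the other settings. Over all genes the first contrast gave 388 calls, 81 with the marker score and 135 to 625 with 1 library left out; the second gave 0 and 834 without treated SHR 1; the third gave 3010, 1026 with 2 groups, 30 with the marker score and 515 to 4789 with 1 library left out. Fewer libraries and a covariate leave fewer degrees of freedom, yet leaving out 1 library lowered some of these counts and raised others. Without treated SHR 1 the calls over all genes rose in each contrast, to 625, 834 and 4789 in the same order. The cause of these shifts was not tested. The filter of 5 FPKM left 12 members to test.

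Among the genes followed through every setting, signs turned in 6 cases, the last of them a called value. Over all tested members in treated SHR against WKY, the count above 0 went from 17 to 7 under median-of-ratios and 6 under quantile scaling. The change of Mcm2 in untreated SHR against WKY was -0.014 with quantile scaling and -0.18 with the marker score. That of Rrm1 in treated SHR against WKY was -0.027 with median-of-ratios and -0.012 with quantile scaling. With the marker score, in treated SHR against WKY, that of Ccnd2 was -0.0023 and that of Cdkn1c was -0.16.

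Libraries share replicate numbers across groups, and whether the numbers pair them is not known here. Deviations of same-numbered libraries correlated between -0.33 and 0.46, and those of other pairs between -0.53 and 0.33. These overlapping ranges do not settle the question. With the replicate number as a block, members called were 0 in untreated SHR against WKY (Birc5 limma adjusted p = 0.0553), beside 2.15% of all tested genes. In treated against untreated SHR they were 0, beside 0.00762%, and in treated SHR against WKY 4, beside 20.6%.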
